A study of Mus musculus with 12 samples.

Results

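The gene set described here holds 10 genes of endoplasmic reticulum (ER) stress and the integrated stress response (ISR), of 29428 genes in the deposited table. The members were taken by gene name, and all 10 were found: the transcription factors *Atf4* and *Ddit3*, the ISR target genes *Trib3*, *Sesn2*, *Asns* and *Chac1*, and the unfolded protein response (UPR) genes *Xbp1*, *Hspa5*, *Dnajb9* and *Herpud1*. They were measured by RNA-seq in 12 libraries of STHdhQ7/Q7 and STHdhQ111/Q111 cells, 3 libraries in each of 4 groups. STHdh cells are immortalized striatal cells from knock-in mouse embryos. Both huntingtin alleles carry 7 glutamine repeats in STHdhQ7/Q7 cells, labelled normal, and 111 in STHdhQ111/Q111 cells, which model Huntington's disease (HD). Q7-C and Q111-C cells were nontreated. Q7-T and Q111-T cells received 100 ng/mL murine IFNγ together with 5 µg/mL LPS for 24 h to mimic neuroinflammation. All 4 groups were grown at 33 °C and used within 20 passages. Each genotype was represented by a single cell line, so the repeat length cannot be told apart from other differences between the lines. The study calls the libraries of a group biological replicates, without saying whether separately grown cultures were used, and p-values measure only the spread between these libraries.

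The ISR begins with kinases that phosphorylate the translation initiation factor eIF2α. PERK responds to misfolded protein in the ER, GCN2 to uncharged tRNA, PKR to double-stranded RNA and HRI to haem shortage and mitochondrial stress. General translation falls, while the mRNA of ATF4 is translated better, and ATF4 then switches on genes of amino acid supply, redox balance and, with CHOP (encoded by *Ddit3*), cell death. The UPR is the ER-specific response. In it, IRE1 splices the *Xbp1* mRNA and ATF6 is cleaved to an active factor, and both raise chaperones and degradation factors of the ER. Both responses have been studied in striatal cells that express mutant huntingtin. mRNA levels show neither eIF2α phosphorylation, nor *Xbp1* splicing, nor ATF4 protein, and a gene-level table does not separate spliced from unspliced *Xbp1*.

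Known promoter elements link these genes to the upstream factors. ATF4 and its partners bind a C/EBP-ATF response element (CARE), and ATF6 and XBP1 bind ER stress elements (ERSE and ERSE-II). RefSeq promoters of GRCm38.p6, from 250 bases before to 50 bases after the transcription start, were matched for 10 of 10 members. They were searched on both strands for ERSE (CCAAT, then 9 bases of any kind, then CCACG), ERSE-II (ATTGG, any base, then CCACG), CARE (TGATGNAA) and the XBP1 element UPRE (TGACGTGG). ERSE and ERSE-II share the letters CCACG. ERSE was found in *Hspa5* alone among the members and in 0.119% of all 32851 promoters, and ERSE-II in *Herpud1* alone and in 0.0365% of all promoters. CARE was found in *Asns*, *Chac1*, *Herpud1* and *Trib3*, which is 4 of 10 members, and in 3.97% of all promoters. UPRE was found in 0 of 10 members and in 0.676% of all promoters. A match describes letters, not binding, and the lack of a match says only that these letters are not in this window. The 4 promoters with a match before the start are shown from 250 bases before the start up to the start, 5′ to 3′ on the gene's strand, with the motif in capitals. They represent the ATF4 branch (*Asns*, *Chac1*), the ER branch (*Hspa5*) and a gene with both kinds of element (*Herpud1*).
Hspa5 (chr2:34771840-34772089, + strand, ERSE in capitals): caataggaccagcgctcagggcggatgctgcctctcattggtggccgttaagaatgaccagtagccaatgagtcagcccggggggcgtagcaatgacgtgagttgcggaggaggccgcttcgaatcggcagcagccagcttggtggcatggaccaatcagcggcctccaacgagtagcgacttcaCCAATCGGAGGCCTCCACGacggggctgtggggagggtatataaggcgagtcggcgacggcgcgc
Herpud1 (chr8:94386179-94386428, + strand, CARE on the opposite strand and then ERSE-II in capitals): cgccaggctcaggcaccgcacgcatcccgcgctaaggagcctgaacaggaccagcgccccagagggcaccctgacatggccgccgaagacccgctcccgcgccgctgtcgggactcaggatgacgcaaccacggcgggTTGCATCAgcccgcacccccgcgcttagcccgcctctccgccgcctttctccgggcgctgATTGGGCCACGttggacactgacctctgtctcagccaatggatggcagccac
Asns (chr6:7693210-7693459, − strand, CARE in capitals): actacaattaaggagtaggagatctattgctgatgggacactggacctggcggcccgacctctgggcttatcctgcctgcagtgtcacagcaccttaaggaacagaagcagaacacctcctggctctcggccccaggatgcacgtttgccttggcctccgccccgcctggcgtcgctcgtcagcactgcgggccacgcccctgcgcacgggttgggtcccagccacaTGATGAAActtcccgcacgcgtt
Chac1 (chr2:119350992-119351241, + strand, CARE on the opposite strand in capitals): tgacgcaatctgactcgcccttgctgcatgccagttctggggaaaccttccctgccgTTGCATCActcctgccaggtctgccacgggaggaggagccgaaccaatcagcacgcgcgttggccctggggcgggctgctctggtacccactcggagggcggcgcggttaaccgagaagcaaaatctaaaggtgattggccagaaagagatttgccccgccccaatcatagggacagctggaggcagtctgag

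The ERSE of *Hspa5* lay from -65 to -47 relative to the start and the ERSE-II of *Herpud1* from -52 to -42. The CARE of *Asns* lay from -23 to -16, that of *Chac1* from -193 to -186, that of *Herpud1* from -112 to -105, and that of *Trib3* from 15 to 22, within the transcribed part.

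**Figure D1:**
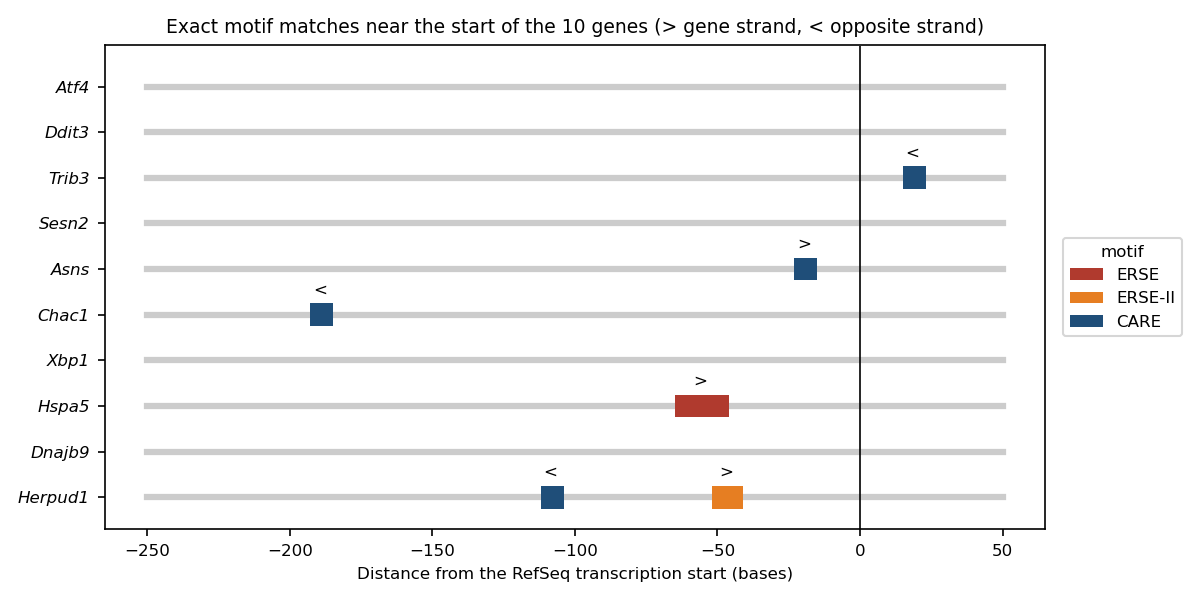
Exact matches of ERSE, ERSE-II and CARE (coloured blocks) in the promoters of the 10 genes, as distance in bases from the RefSeq transcription start (vertical line); grey lines show the window searched and arrowheads the strand. The ER stress elements of *Hspa5* and *Herpud1* sit within 65 bases before the start, and the CARE of *Trib3* lies after it.

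The libraries held between 57505990 and 96417834 estimated counts each. The smallest count of any member was 311 (*Dnajb9*) and every member passed the filter on low values (at least 0.5 TPM in at least 3 libraries), as did 16127 genes in all. TPM is scaled for length and depth and serves here for levels, whereas fold changes and tests come from the counts (edgeR's quasi-likelihood test, Benjamini-Hochberg adjustment over all 16127 genes, all 12 libraries in 1 fit). The deposited TPM did not sum to a common total, with 716658 to 719623 per library in Q7-C and 688352 to 692194 in Q111-C. "Passed" means an adjusted p under 0.05. The choice of scale matters between the lines: on log2(TPM + 0.5) the median difference between the lines over all genes was 0.274 (Q111-C minus Q7-C) and 0.341 (Q111-T minus Q7-T), while on the count scale it was -0.02 and -0.029. Exact permutation tests of TPM, with 3 libraries against 3, cannot give a p under 0.1.

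Of 7 neuronal markers, 5 were in the table, of which *Snap25* and *Syt1* were at most 0.025 TPM and *Map2* and *Syn1* at most 10.6, while *Tubb3* was 16.2 to 17.8 TPM in Q7-C, 57.9 to 83.6 in Q7-T, 2.56 to 4.88 in Q111-C and 23.1 to 26.6 in Q111-T. Of 8 macrophage or microglia markers, 6 were in the table and 4 of these stayed under 0.5 TPM, *Ptprc* at most 0.00642, but *Cd68* was 14.2 to 16.5 TPM in Q111-C and 40.3 to 57.5 in Q111-T, and *Tmem119* reached 20.2. The sum of 7 astrocyte markers was 21.0 to 39.0 TPM in Q7-C, 15.6 to 41.7 in Q7-T, 74.0 to 89.2 in Q111-C and 70.0 to 84.3 in Q111-T, with *Gja1* at up to 79.4. The sum of 7 mesenchymal markers was 4240 to 4840 TPM in Q7-C, 3290 to 3710 in Q7-T, 3670 to 3830 in Q111-C and 1500 to 1620 in Q111-T. Between the nontreated lines these markers went both ways: of 6 tested, 3 were higher and 1 lower in Q111-C, with *Acta2* at 1600 to 1790 TPM in Q7-C and 24.6 to 56.0 in Q111-C, and *Col3a1* at 20.4 to 31.5 and 113 to 153. The sum of 4 neural progenitor markers was lower in both Q111 groups, at 75.1 to 127 TPM in Q7-C, 36.1 to 104 in Q7-T, 10.7 to 13.1 in Q111-C and 8.74 to 13.6 in Q111-T, and 3 of 3 tested (*Nes*, *Sox2* and *Pax6*) passed as lower in the Q111 line with and without treatment. The sum of striatal projection neuron markers stayed at most 6.83 TPM. The part of these markers in the results below was not tested. In bulk RNA, fewer cells of a kind and less RNA per cell cannot be told apart. Library 1 of Q7-C, library 2 of Q7-T and library 2 of Q111-T stood apart from their groups. The chi-square per degree of freedom against their group mates was 73.9 to 102, 163.8 to 169.9 and 41.6 to 46.7, and between the other libraries of a group it was 4.57 to 13.1. In TPM, they were the lowest of their group for 7, 8 and 7 of the 10 members. Results that rest on them are given with and without them, a choice made after seeing the data.

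Of the 10 genes, 8 were lower in nontreated Q111 cells than in nontreated Q7 cells, by 1.43 to 3.65 times, where 11.6% of all genes passed as lower. This count became 3 in limma on log2(TPM + 0.5) and 5 without any 1 of the Q111-C libraries. IFNγ/LPS changed 1 of 10 in Q7 cells, where 5.35% of all genes passed, and 4 of 10 in Q111 cells, where 18.7% passed. In Q111 cells it raised *Sesn2* by 2.49 ± 0.149 (SE) on the log2 scale and *Trib3* by 0.94 ± 0.159, and lowered *Xbp1* and *Herpud1*. For *Sesn2* and *Trib3* the response itself differed between the lines, as it did for 5.7% of all genes. The ER chaperone *Hspa5* was not detectably changed by the treatment in either line. The following paragraphs take the genes by role.

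**Figure D2:**
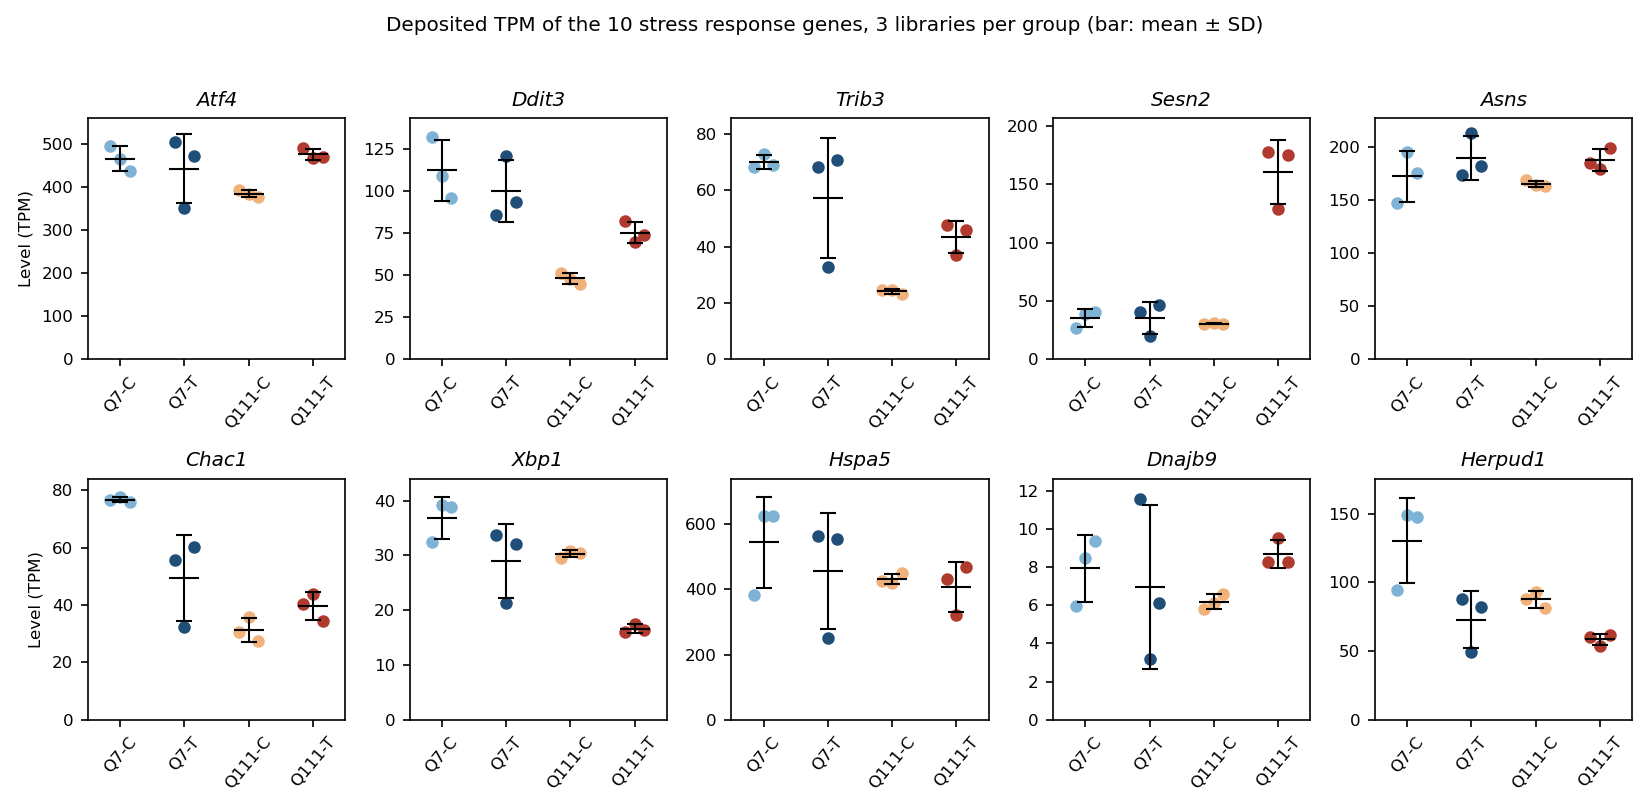
TPM (vertical axes, each starting at 0) of the 10 genes in the 4 groups. Points are the 3 libraries of a group in the order 1, 2, 3, and black bars the mean ± SD. *Sesn2* in Q111-T (129 to 178 TPM) stands above every other library, where it is at most 46.3, and the wide bars of Q7-T come from library 2 except for *Dnajb9*, where library 1 lies farthest from the mean.

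*Atf4* (chr15:80255184-80257541 in GRCm38, + strand) encodes the factor through which the ISR acts on transcription. Its level was 495, 464 and 437 TPM in Q7-C libraries 1 to 3, 505, 351 and 472 in Q7-T, 393, 384 and 376 in Q111-C, and 491, 466 and 469 in Q111-T. The Q111-C libraries were below all Q7-C and all Q111-T libraries, and Q7-T overlapped every group. On the count scale *Atf4* was lower in Q111-C than in Q7-C by 0.63 ± 0.177 (log2, edgeR adjusted p = 0.0247). This call was lost without Q7-C library 1 (-0.40, adjusted p = 0.0726) and without any 1 of the Q111-C libraries (adjusted p 0.0749 to 0.109). The treatment gave 0.41 ± 0.177 in Q111 cells (adjusted p = 0.142) and 0.08 ± 0.177 in Q7 cells (adjusted p = 0.892), neither of which passed. Without Q7-C library 1, which enters the shared estimate of spread, the value in Q111 cells passed at an edgeR adjusted p of 0.0408, and the value in Q7 cells was 0.31 (adjusted p = 0.266).

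*Ddit3* (chr10:127290774-127296288, + strand) encodes CHOP, which promotes cell death under lasting ER stress. Its level was 132, 109 and 95.8 TPM in Q7-C, 85.7, 121 and 93.4 in Q7-T, 51.6, 47.7 and 45.0 in Q111-C, and 82.4, 69.6 and 74.1 in Q111-T. All Q111 libraries were below all Q7 libraries, and all Q111-T libraries above all Q111-C libraries. *Ddit3* was lower in Q111-C than in Q7-C by 1.59 ± 0.323 (log2, 3.00 times, edgeR adjusted p = 0.00389), a call that held without each library in turn. It was lower in Q111-T than in Q7-T by 0.92 ± 0.318 (edgeR adjusted p = 0.0402). Without Q7-T library 2, the highest of its group, that difference was -0.43 (adjusted p = 0.167), and leaving out any Q111-C or Q111-T library or Q7-C library 2 also ended the call (adjusted p 0.0544 to 0.119).

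The rise of *Ddit3* with treatment in Q111 cells was 0.75 ± 0.318 on the log2 scale and did not pass (edgeR adjusted p = 0.139). It passed in limma on log2(TPM + 0.5) (0.64, adjusted p = 0.0315) and without Q7-T library 2 (0.74, edgeR adjusted p = 0.0202). Without that library the difference between the responses of the lines also passed (1.15, adjusted p = 0.0443, against 0.67 ± 0.447 and 0.451 with all libraries). *Ddit3* shares its locus with *Mars1* (80.7 to 176 TPM) and *Gm4189* on the opposite strand and with a further gene model of the same name in GENCODE M21. The libraries were stranded, but whether reads were counted by strand is not given in the sources used here, so the *Ddit3* values are uncertain in level.

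Among the ISR target genes, *Trib3* (chr2:152337422-152344032, − strand) encodes a pseudokinase that binds ATF4 and CHOP and dampens them. Its level was 68.5, 72.8 and 69.0 TPM in Q7-C, 68.5, 32.8 and 70.9 in Q7-T, 24.7, 24.8 and 23.2 in Q111-C, and 47.8, 36.9 and 45.8 in Q111-T. The Q111-C libraries were the lowest, below every library of the other groups, and of the Q7 libraries only library 2 of Q7-T was below Q111-T. *Trib3* was lower in Q111-C than in Q7-C by 1.87 ± 0.163 (log2, 3.65 times, edgeR adjusted p = 9.38e-06), the largest difference of the 10 genes in that comparison. The treatment raised it in Q111 cells by 0.94 ± 0.159 (edgeR adjusted p = 0.00151) and gave -0.18 ± 0.158 in Q7 cells (adjusted p = 0.687). The difference between the responses was 1.12 ± 0.224 (edgeR adjusted p = 0.0134). It was 1.06 without Q111-C library 3, at an adjusted p of 0.0509. In treated cells *Trib3* was lower in Q111-T than in Q7-T by 0.75 ± 0.159 (edgeR adjusted p = 0.00339). In limma on log2(TPM + 0.5) the rise in Q111 cells (0.82, adjusted p = 0.0514), the difference between the responses (1.19, adjusted p = 0.0974) and the line difference in treated cells (-0.32, adjusted p = 0.351) did not pass.

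*Sesn2* (chr4:132492032-132510501, − strand) encodes sestrin 2, a leucine-binding inhibitor of mTORC1 that is induced by ATF4 and also by p53. Its level was 27.0, 39.2 and 40.3 TPM in Q7-C, 40.8, 20.2 and 46.3 in Q7-T, 30.1, 30.9 and 30.4 in Q111-C, and 178, 129 and 175 in Q111-T. Q111-T stood apart from the other 3 groups, which overlapped each other. The mean TPM of Q111-T was 5.27 ± 0.91 times that of Q111-C (SD, n = 3 per group). On the count scale the rise in Q111 cells was 2.49 ± 0.149 (log2, edgeR adjusted p = 6.65e-07), and 0.16 ± 0.142 in Q7 cells (adjusted p = 0.696). The responses of the lines differed by 2.33 ± 0.203 (edgeR adjusted p = 0.000172). Without each library in turn, this difference lay between 2.20 and 2.47 and passed each time. The read counts also put *Sesn2* 0.52 ± 0.142 lower in Q111-C than in Q7-C (edgeR adjusted p = 0.0206). This call was lost without Q7-C library 2 or 3 or any Q111-C library (adjusted p 0.073 to 0.0954), and in TPM the groups overlapped. *Gm12981*, which overlaps *Sesn2* on the same strand, had at most 1.15 TPM.

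Of 5 other sestrins, tribbles and CHAC genes, 0 rose and 1 fell with treatment in Q111 cells, where 11.3% of all genes rose and 7.33% fell. *Sesn3*, a FoxO target, exceeded its Q7-C level in Q111-C by 1.80 ± 0.254 (log2, edgeR adjusted p = 0.000326). *Trib2*, a relative of *Trib3*, exceeded its Q7-C level in Q111-C by 1.50 ± 0.197 (edgeR adjusted p = 0.000193) and fell by 2.37 ± 0.203 with treatment in Q111 cells (adjusted p = 9.01e-06).

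*Chac1* (chr2:119351229-119354381, + strand) encodes an enzyme that degrades glutathione. Its level was 76.7, 77.5 and 76.0 TPM in Q7-C, 55.6, 32.4 and 60.1 in Q7-T, 30.5, 35.8 and 27.6 in Q111-C, and 40.4, 43.9 and 34.5 in Q111-T. Q7-C was above every other library. *Chac1* was lower in Q111-C than in Q7-C by 1.63 ± 0.197 (log2, 3.10 times, edgeR adjusted p = 0.000103), and this held without each library. The treatment gave -0.51 ± 0.192 in Q7 cells (adjusted p = 0.21) and 0.46 ± 0.193 in Q111 cells (adjusted p = 0.136), with a difference of 0.96 ± 0.272 between the lines (edgeR adjusted p = 0.0656). None of these 3 values passed. The difference passed in DESeq2 (0.95, adjusted p = 0.0126) and without the 3 libraries that stood apart (0.61, edgeR adjusted p = 0.032). The value in Q111 cells passed without the 2 in Q7 cells (0.47, adjusted p = 0.0374) and was 0.25 without Q111-T library 2 (adjusted p = 0.475). In treated cells the line difference was -0.67 ± 0.193 (edgeR adjusted p = 0.0179), which was lost without Q7-T library 3 or Q111-T library 1 or 3 (adjusted p 0.0572 to 0.0848).

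*Asns* (chr6:7675169-7693254, − strand), encoding asparagine synthetase, is a classical ATF4 target of amino acid shortage. Its level was 147, 195 and 176 TPM in Q7-C, 174, 213 and 182 in Q7-T, 169, 164 and 163 in Q111-C, and 185, 179 and 199 in Q111-T. It passed no comparison. The treatment gave 0.41 ± 0.232 (log2) in Q7 cells and 0.28 ± 0.232 in Q111 cells, with edgeR adjusted p of 0.47 and 0.486. The value in Q7 cells was 0.01 without Q7-T library 2 (adjusted p = 0.98), and the value in Q111 cells passed without the 2 Q7 libraries that stood apart (0.29, adjusted p = 0.0287) and without all 3 (0.24, adjusted p = 0.0397). The line difference was -0.38 ± 0.232 in nontreated cells (adjusted p = 0.295) and passed without Q7-T library 2 (-0.37, adjusted p = 0.0201). In treated cells it was -0.50 ± 0.232 (edgeR adjusted p = 0.11), and -0.69 without Q7-T library 1, which passed at an adjusted p of 0.0319. Without Q7-T library 2 it was -0.10 (adjusted p = 0.551).

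Of the UPR genes, *Xbp1* (chr11:5520659-5525893, + strand) encodes the factor made active by IRE1 splicing. Its level was 32.4, 39.2 and 38.9 TPM in Q7-C, 33.7, 21.3 and 32.1 in Q7-T, 29.6, 30.8 and 30.5 in Q111-C, and 16.0, 17.5 and 16.4 in Q111-T. The 3 Q111-T libraries were the lowest of the 12. The treatment lowered *Xbp1* in Q111 cells by 0.75 ± 0.137 (log2, 1.69 times, edgeR adjusted p = 0.0024), whereas Q7 cells gave -0.17 ± 0.136 (adjusted p = 0.646). The difference between these responses was -0.58 ± 0.193 and did not pass (edgeR adjusted p = 0.113), but it passed without Q111-T library 2 (-0.73, adjusted p = 0.0376). *Xbp1* was lower in Q111-C than in Q7-C by 0.60 ± 0.137 (edgeR adjusted p = 0.00756) and lower in Q111-T than in Q7-T by 1.18 ± 0.138 (adjusted p = 6.36e-05). The first of these was lost in limma on log2(TPM + 0.5) (-0.27, adjusted p = 0.336).

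*Hspa5* (chr2:34771970-34777547, + strand) encodes BiP, the main ER chaperone and the standard readout of the UPR. It was among the highest of the 10 genes, at 384, 624 and 625 TPM in Q7-C, 563, 250 and 554 in Q7-T, 425, 421 and 449 in Q111-C, and 432, 320 and 470 in Q111-T. The low values of Q7-C, Q7-T and Q111-T were those of the libraries that stood apart, and the groups overlapped in TPM in all 4 comparisons. The treatment gave 0.00 ± 0.157 (log2) in Q111 cells and -0.11 ± 0.157 in Q7 cells, with edgeR adjusted p of 0.996 and 0.815. On the count scale *Hspa5* was lower in Q111-C than in Q7-C by 0.63 ± 0.157 (edgeR adjusted p = 0.0133) and lower in Q111-T than in Q7-T by 0.51 ± 0.157 (adjusted p = 0.0238). The first of these was lost without Q7-C library 2 or 3 or any Q111-C library (adjusted p 0.0555 to 0.0784), and the second without Q7-T library 1 or 3 or Q111-T library 1 or 2 (adjusted p 0.0605 to 0.0831). In limma on log2(TPM + 0.5) they were -0.30 and -0.09 and did not pass.

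*Dnajb9* (chr12:44205559-44210326, − strand) encodes ERdj4, a co-chaperone of BiP and a target of spliced XBP1. It was the lowest of the 10 genes, with 5.98, 8.50 and 9.37 TPM in Q7-C, 11.6, 3.16 and 6.13 in Q7-T, 5.82, 6.13 and 6.60 in Q111-C, and 8.28, 9.55 and 8.29 in Q111-T. All Q111-T libraries were above all Q111-C libraries, while Q7-T spanned all other groups. It passed no comparison, and the treatment in Q111 cells gave 0.61 ± 0.268 (log2, edgeR adjusted p = 0.154). Without Q7-T library 1, the highest of that group, this rise passed (0.61, adjusted p = 0.0453), as did the difference between the responses (1.10, adjusted p = 0.0471, against 0.69 ± 0.379 and 0.343) and the line difference in nontreated cells (-0.66, adjusted p = 0.0273, against 0.108). Leaving out Q7-T library 2 also brought the line difference past the threshold (-0.65, edgeR adjusted p = 0.0456).

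*Herpud1* (chr8:94386438-94395377, + strand) encodes HERP, a scaffold of ER-associated degradation with both a CARE and an ERSE-II in the promoter shown above. Its level was 94.6, 149 and 148 TPM in Q7-C, 87.7, 49.3 and 81.8 in Q7-T, 88.1, 93.4 and 81.5 in Q111-C, and 60.1, 54.0 and 61.7 in Q111-T. Treated libraries were below the nontreated libraries of their own line in both lines. It was the only member that passed all 4 pairwise comparisons in edgeR, and it passed none of them in limma on log2(TPM + 0.5). The treatment lowered it by 0.66 ± 0.115 (log2, edgeR adjusted p = 0.0046) in Q7 cells and by 0.48 ± 0.115 (adjusted p = 0.0121) in Q111 cells, and the difference between the responses was 0.18 ± 0.162 (adjusted p = 0.601). The call in Q111 cells was lost without Q111-C library 2 (-0.47, adjusted p = 0.0518) and in limma (-0.58, adjusted p = 0.144). *Herpud1* was lower in Q111-C than in Q7-C by 0.87 ± 0.115 (edgeR adjusted p = 0.000213) and in Q111-T than in Q7-T by 0.69 ± 0.115 (adjusted p = 0.000767), and limma gave -0.54 and -0.27 (adjusted p 0.145 and 0.403).

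**Figure D3:**
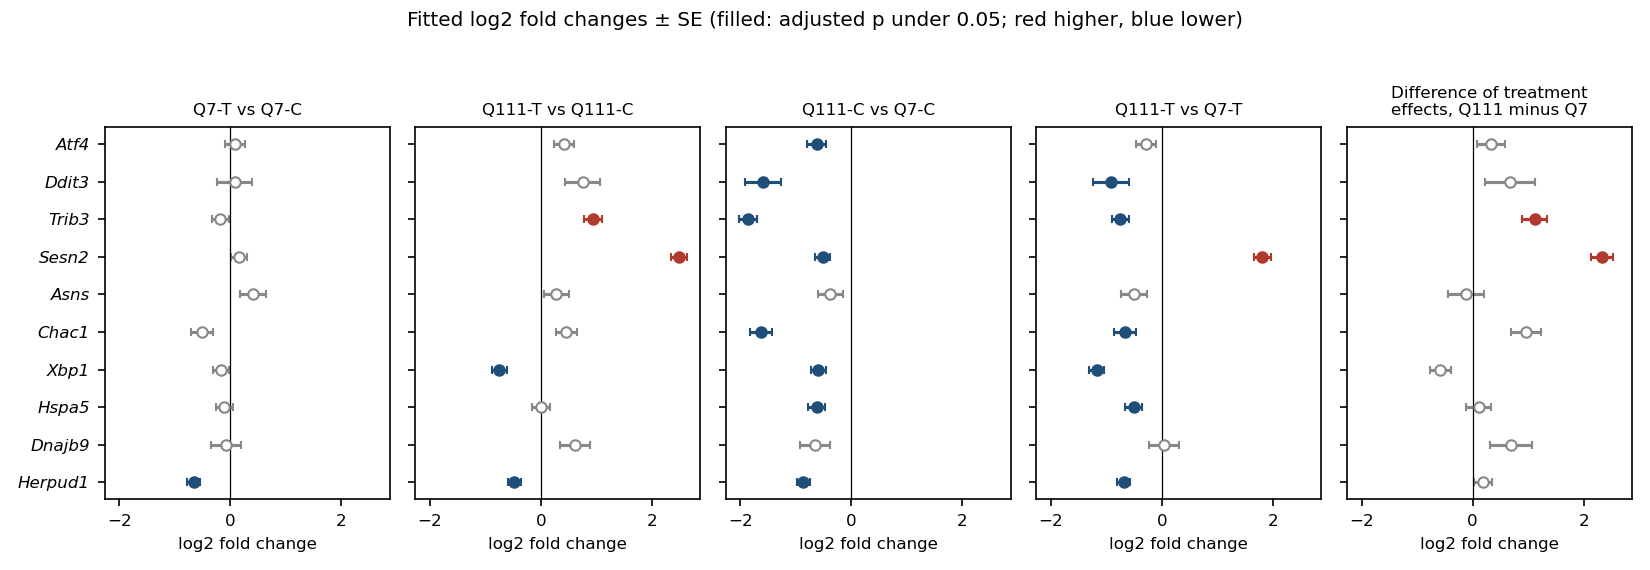
Fitted log2 fold changes (horizontal axes) of the 10 genes in the 4 pairwise comparisons and in the difference of treatment effects. Points carry bars of ± 1 SE, and filled points had an adjusted p under 0.05. Between the nontreated lines all 10 points lie left of 0, of which 8 are filled, and *Sesn2* in Q111-T is the point farthest to the right.

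In nontreated cells, the members' 10 fold changes between Q111-C and Q7-C were all negative, and 8 of 10 passed, with a median of -0.64 on the log2 scale. Over all genes 22.7% passed in either direction and 11.6% as lower, and the median was -0.02. TPM did not overlap between the groups for 6 of 10 members and for 51.4% of all genes. With limma on log2(TPM + 0.5), 3 of 10 passed (*Ddit3*, *Trib3* and *Chac1*), against 22.4% of all genes. Without any 1 of the Q111-C libraries 5 of 10 passed, against 16.5% to 17.1% of all genes, and without the 2 libraries that stood apart in Q7 cells 10 of 10 passed, against 34.5% of all genes.

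Of 16 other genes of amino acid supply that ATF4 drives, 11 were lower and 0 higher in Q111-C, with a median of -0.72, where 11.6% of all genes passed as lower and 11.1% as higher. *Cth*, which makes cysteine from cystathionine, was lower by 1.65 ± 0.33 (edgeR adjusted p = 0.00347), and *Slc3a2*, the heavy chain of several amino acid transporters, by 1.34 ± 0.191 (adjusted p = 0.00034). The count of 11 became 3 in limma on log2(TPM + 0.5), and 7 to 5 without Q7-C library 2 or 3 or any Q111-C library. Of 17 stress-induced ATF4 or CHOP target genes, 11 were lower and 1 higher, and in limma on log2(TPM + 0.5) 4 were lower. *Stc2* (stanniocalcin 2) was lower by 3.16 ± 0.317 (edgeR adjusted p = 2.66e-05) and *Vldlr* by 2.34 ± 0.207 (adjusted p = 1.03e-05), while *Gdf15*, a secreted stress hormone, was higher by 1.81 ± 0.31 (adjusted p = 0.00123). Of 10 bZIP partners and further ISR factors, 4 were lower (3 in limma), among them *Nupr1* by 1.58 ± 0.335 (edgeR adjusted p = 0.00486) and *Atf5* by 1.27 ± 0.259 (adjusted p = 0.00392).

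In the ER arms, of 20 ER chaperones and folding enzymes, 2 were higher and 3 lower in Q111-C, of 16 genes of ER-associated degradation 1 was higher and 1 lower, and of 11 UPR sensors and transducers 1 was higher and 1 lower. The tRNA synthetases, many of which ATF4 drives, were lower for 2 of 20 genes, and none was higher. Of 15 ISR kinases, eIF2 subunits and phosphatases, 3 were lower, among them *Eif2s1*, encoding eIF2α itself, by 0.91 ± 0.145 (edgeR adjusted p = 0.000724). Beside the 11.1% of all genes that passed as higher and 11.6% as lower, the chaperones stood at 10.0% and 15.0%, the synthetases at 10.0% lower and the kinase list at 20.0% lower, and nothing is read from these counts about the lists.

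IFNγ/LPS changed 1 of 10 members in Q7 cells (*Herpud1*, lower), and 5.35% of all genes passed (3.61% higher, 1.74% lower). The median of the 10 was -0.10, against 0.003 over all genes. TPM did not overlap for 2 of 10 members (*Chac1* and *Herpud1*) and for 14.4% of all genes. *Herpud1* was lost, leaving 0 members, when only the Q7 groups were fitted (-0.65, edgeR adjusted p = 0.159) and in limma on log2(TPM + 0.5) (-0.85, adjusted p = 0.0964), and *Chac1* and *Herpud1* were the members with an unadjusted edgeR p under 0.05. Around the members, *Atf3* rose by 1.12 ± 0.175 (edgeR adjusted p = 0.00201), *Cebpd* by 4.41 ± 0.36 (adjusted p = 1.1e-05) and *Eif2ak2*, the interferon-induced kinase PKR, by 1.21 ± 0.23 (adjusted p = 0.00799). *Wars*, an interferon-induced tRNA synthetase, rose by 1.50 ± 0.138 (adjusted p = 3.07e-05), and *Kars* and *Ero1lb* also passed as higher. *Slc7a5*, of the amino acid supply list, fell by 0.61 ± 0.146 (edgeR adjusted p = 0.0338), a call lost in limma on log2(TPM + 0.5) and when only the Q7 groups were fitted. Of 141 list genes tested, 7 rose and 1 fell. Of the 17 stress-induced targets, 1 rose (*Bcl2l11*, 0.68 ± 0.144, edgeR adjusted p = 0.0162), a call lost in limma on log2(TPM + 0.5), when only the Q7 groups were fitted, with no filter on low values, and without Q7-C library 2 or Q7-T library 1 or 3. The call of *Eif2ak2* was lost in limma and when only the Q7 groups were fitted, and that of *Atf3* in the latter fit.

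In Q111 cells, IFNγ/LPS changed 4 of 10 members, 2 upward (*Sesn2*, *Trib3*) and 2 downward (*Xbp1*, *Herpud1*), and 18.7% of all genes passed (11.3% higher, 7.33% lower). The median of the 10 was 0.43, against -0.005. TPM did not overlap for 8 of 10 members and for 49.6% of all genes. Without the 2 Q7 libraries that stood apart, which keeps all Q111 libraries in place, 9 of 10 passed (7 higher, 2 lower), and 36.7% of all genes. Without all 3 such libraries 7 of 10 passed, against 42.5% of all genes, and in limma on log2(TPM + 0.5) 3 of 10 (*Sesn2*, *Ddit3* and *Xbp1*), against 17.4%.

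Most of the stress-induced ATF4 or CHOP targets outside the 10 members rose in Q111 cells. Of 17 tested, 14 were higher and 0 lower in Q111-T than in Q111-C, with a median of 1.95, and 11.3% of all genes passed as higher. *Pmaip1*, encoding the death-promoting protein NOXA, was 7.08, 9.53 and 9.58 TPM in Q111-C and 211, 196 and 214 in Q111-T, a rise of 4.67 ± 0.519 (log2, edgeR adjusted p = 6.84e-05). *Gdf15* was 12.4, 11.5 and 10.5 TPM in Q111-C and 210, 249 and 182 in Q111-T, a rise of 4.34 ± 0.338 (edgeR adjusted p = 4.29e-06). The smallest rises were those of *Bcl2l11* (0.80 ± 0.144, adjusted p = 0.00229) and *Vldlr* (0.88 ± 0.199, adjusted p = 0.00892). Several genes of this list are known targets of p53 as well, among them *Pmaip1*, *Gdf15*, *Cdkn1a*, *Bbc3*, *Gadd45a* and *Tnfrsf10b*, as is *Sesn2*. *Cdkn1a*, which encodes the cell cycle inhibitor p21 and is named here after its values were seen, was 55.1 to 60.6 TPM in Q111-C and 642 to 700 in Q111-T. *Sesn1*, of the list of other sestrins and also named after its values were seen, went the other way. It was 21.7, 24.2 and 23.2 TPM in Q111-C and 12.3, 7.25 and 11.6 in Q111-T, and did not pass. The part of p53 was not tested. *Ddit4*, *Vegfa* and *Ero1l*, named likewise after their values were seen and known also to respond to hypoxia, rose by 2.41, 2.24 and 2.61 (log2). The count was 15 without the 2 or the 3 libraries that stood apart, 13 to 15 without each library in turn, and 11 in limma on log2(TPM + 0.5).

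**Figure D4:**
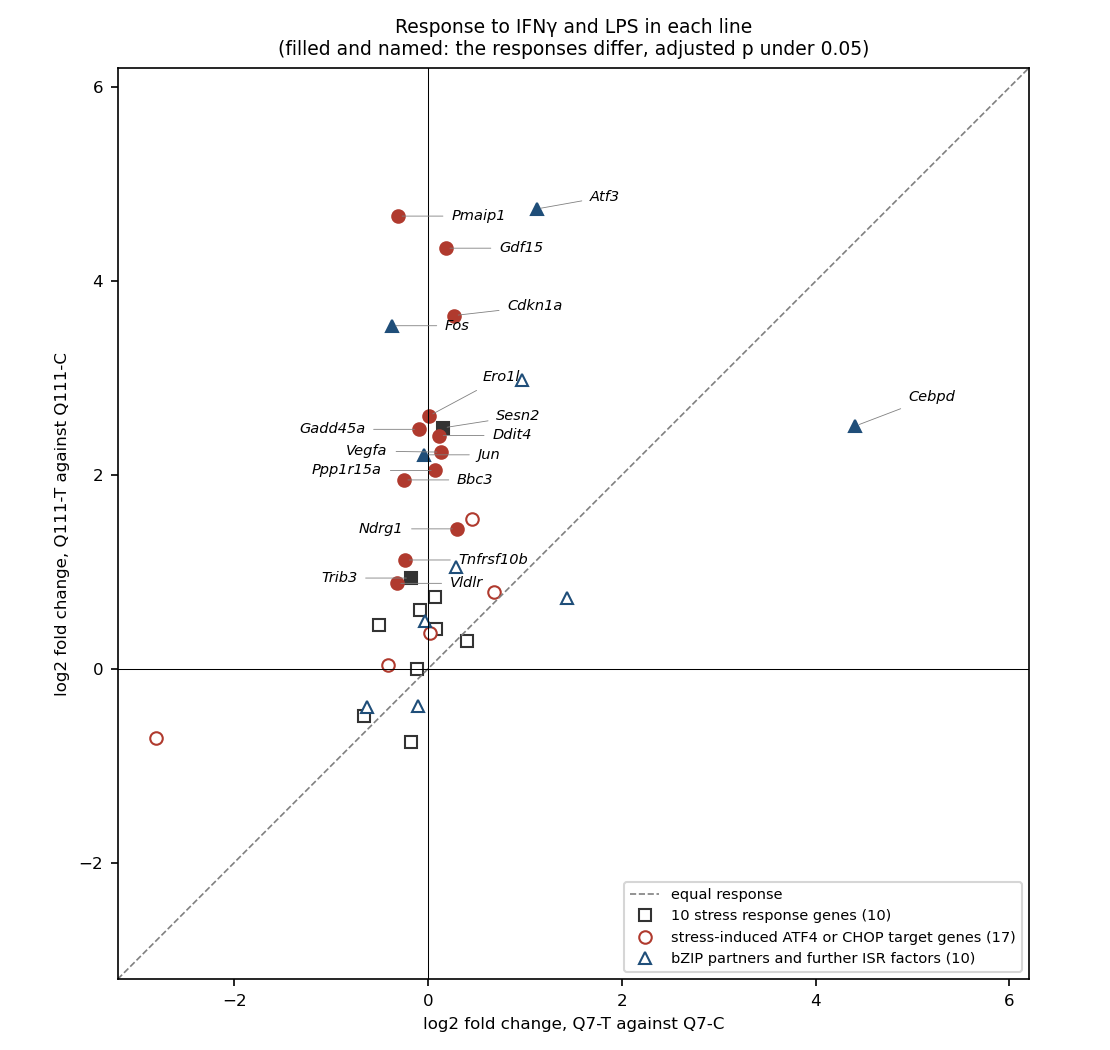
Log2 fold change with IFNγ/LPS in Q7 cells (horizontal axis) and in Q111 cells (vertical axis) for the 10 members (squares), the 17 stress-induced targets (circles) and 10 bZIP partners and further ISR factors (triangles). Named, filled points passed the test of the difference between the lines; they lie above the dashed line of equal response except *Cebpd*.

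Of the 10 bZIP partners, 7 rose in Q111 cells and none fell, where 11.3% of all genes rose and 7.33% fell. *Atf3*, a factor induced by ATF4 and by many other signals, was 8.12, 7.94 and 9.90 TPM in Q111-C and 217, 215 and 216 in Q111-T (4.75 ± 0.202, edgeR adjusted p = 1.18e-07). *Fos* rose by 3.54 ± 0.357 (adjusted p = 3.08e-05), *Nfe2l2*, encoding the antioxidant factor NRF2, by 1.06 ± 0.178 (adjusted p = 0.00145) and *Cebpg*, a partner of ATF4, by 0.50 ± 0.116 (adjusted p = 0.0109). *Ppp1r15a*, encoding the phosphatase subunit GADD34 that reverses eIF2α phosphorylation, was 28.8, 31.2 and 29.0 TPM in Q111-C and 129, 109 and 105 in Q111-T (2.05 ± 0.176, edgeR adjusted p = 9.17e-06), and *Eif2ak2* rose by 1.83 ± 0.234 (adjusted p = 0.000199).

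In the amino acid branch, of the 16 ATF4-linked genes of amino acid supply, 4 rose and 1 fell, with a median of -0.03, where 11.3% of all genes rose and 7.33% fell. *Slc7a11*, the cystine importer, rose by 1.72 ± 0.154 (edgeR adjusted p = 1.29e-05) and *Cth* by 1.59 ± 0.329 (adjusted p = 0.00526), while *Pycr1*, of proline synthesis, fell by 0.79 ± 0.147 (adjusted p = 0.00273). Of 20 tRNA synthetases, 1 rose (*Wars*) and 1 fell (*Vars*). Of the ER arms, among 20 chaperones and folding enzymes 1 rose (*Ero1lb*, 1.89 ± 0.215, edgeR adjusted p = 7.93e-05) and 2 fell, among 16 degradation genes 1 rose (*Edem1*, 0.52 ± 0.127, adjusted p = 0.014) and 1 fell, among 14 translocation and transport genes 2 fell, and among 11 UPR sensors 1 rose and 2 fell. In these ER lists and the synthetases at most 9.09% of the genes rose, beside 11.3% of all genes, and each count of fallen genes was 1 or 2. Nothing is read from these counts about the lists. Of the mesenchymal markers, 5 of 6 tested fell in the same comparison.

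**Figure D5:**
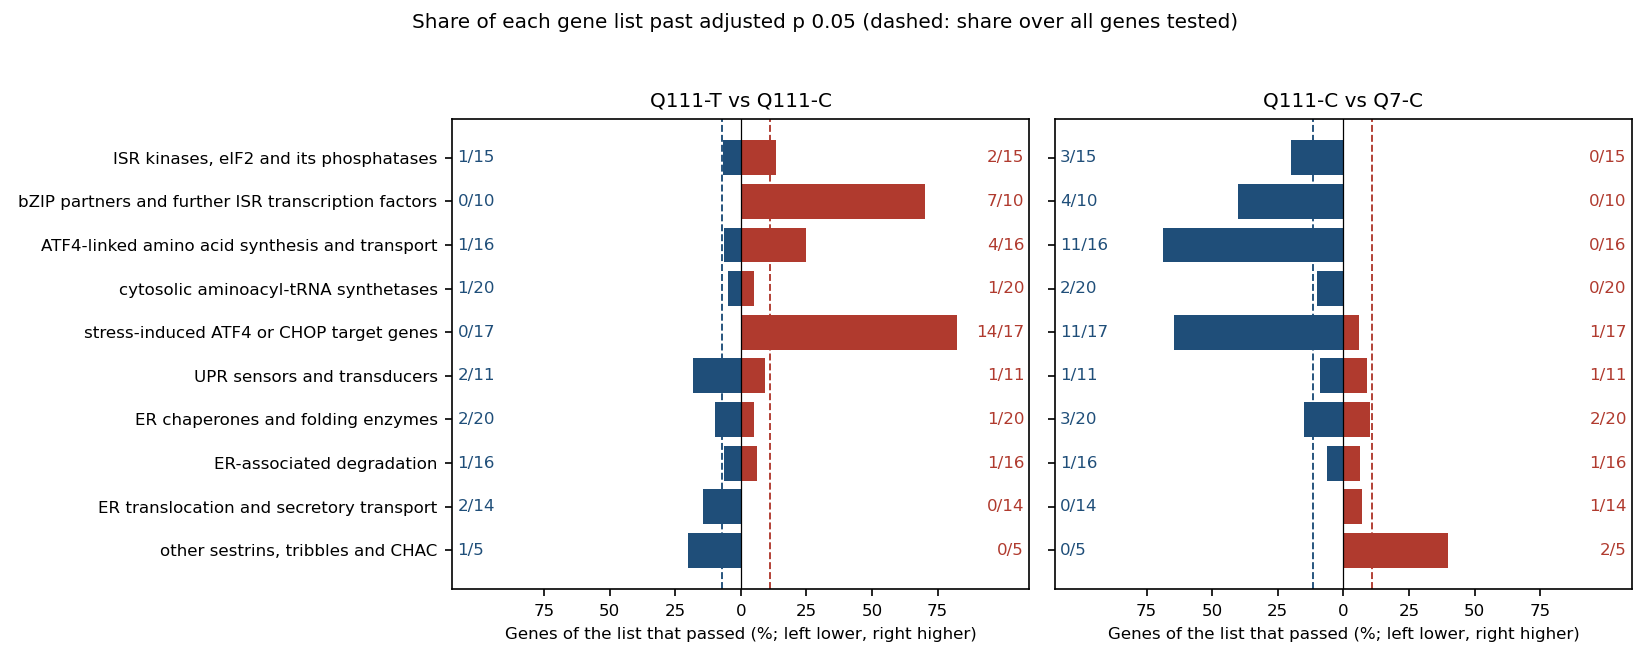
Percentage of the genes tested in each of 10 lists that passed as higher (red, to the right) or lower (blue, to the left), after IFNγ/LPS in Q111 cells (left panel) and between the nontreated lines (right panel). Numbers give counts, and dashed lines the share over all genes tested. The stress-induced targets reach 14 of 17 higher on the left and 11 of 17 lower on the right.

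The test of whether the response to IFNγ/LPS differs between the lines passed for 2 of 10 members, *Sesn2* and *Trib3*, both with the larger value in Q111 cells, and for 5.7% of all genes (3.94% with the larger value in Q111 cells, 1.75% with the smaller). The median of the 10 was 0.50, against -0.024 over all genes. *Xbp1* and *Ddit3* were added without the 2 Q7 libraries that stood apart (-0.58 and 0.86, edgeR adjusted p 0.0392 and 0.00714), where 17.1% of all genes passed. Of the 17 stress-induced targets, 12 passed and all 12 had the larger value in Q111 cells, with a median of 2.09. For *Pmaip1* the difference was 4.98 ± 0.667 (edgeR adjusted p = 0.00163) and for *Gdf15* it was 4.16 ± 0.441 (adjusted p = 0.000399). The count was 9 to 13 without each library in turn and 9 in limma on log2(TPM + 0.5). Of the bZIP partners, *Atf3* (3.62 ± 0.252, edgeR adjusted p = 3.71e-05), *Fos* (3.91 ± 0.479, adjusted p = 0.000936) and *Jun* (2.25 ± 0.4, adjusted p = 0.00752) responded more in Q111 cells, and *Cebpd* (-1.90 ± 0.447, adjusted p = 0.0298) responded more in Q7 cells. As these differences and the values in Q111 cells share the same libraries, they are not separate evidence.

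In treated cells, 7 of 10 members differed between the lines, 1 higher in Q111-T (*Sesn2*, 1.81 ± 0.146, edgeR adjusted p = 4.38e-06) and 6 lower, and 38.4% of all genes passed (19.8% higher, 18.7% lower). The median of the 10 was -0.59, against -0.029. TPM did not overlap for 3 of 10 members (*Ddit3*, *Sesn2* and *Xbp1*) and for 46.3% of all genes. In limma on log2(TPM + 0.5), 2 of 10 passed (*Sesn2* and *Xbp1*), against 36.1% of all genes. In that fit the value of *Atf4* turned from -0.29 to 0.12 and that of *Dnajb9* from 0.03 to 0.47, none of which passed. Without Q111-T library 1, 4 of 10 passed, against 29.7% of all genes. Of the 17 stress-induced targets, 11 were higher and 3 lower in Q111-T. Of the 16 genes of amino acid supply, 1 was higher and 9 lower, among them *Phgdh*, the entry of serine synthesis, by 1.77 ± 0.241 (edgeR adjusted p = 0.000186) and *Psat1* by 1.45 ± 0.195 (adjusted p = 0.000174). Of the 20 tRNA synthetases, 10 were lower, with *Wars* lowest (-1.88 ± 0.14, edgeR adjusted p = 2.38e-06). Of the 20 ER chaperones and folding enzymes, 2 were higher and 9 lower, among them *Manf*, a secreted ER stress protein, by 0.98 ± 0.285 (edgeR adjusted p = 0.0191). Of the 11 UPR sensors 4 were higher and 2 lower, with *Eif2ak3*, encoding PERK, at 1.18 ± 0.319 (adjusted p = 0.0132) and *Atf6b* at -1.31 ± 0.144 (adjusted p = 4.06e-05), of 16 degradation genes 2 were higher and 1 lower, and of 14 transport genes 1 was higher. In limma on log2(TPM + 0.5) the lower calls became 3 of 16 for amino acid supply, 4 of 20 for tRNA synthetases and 1 of 20 for chaperones. The 9 lower chaperones became 5 without Q7-T library 2 or 3, 4 without Q111-T library 1 and 3 without Q111-T library 3, and the 9 lower genes of amino acid supply became 5 without Q111-T library 3.

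The order of the members by level was much the same in the 4 groups apart from *Sesn2*. *Hspa5* and *Atf4* were highest, with mean TPM of 544 and 465 in Q7-C and 407 and 476 in Q111-T, and overlapped except in Q111-C. *Asns* came next in every group (165 to 189 TPM), and *Dnajb9* was last (6.19 to 8.71 TPM). *Sesn2* was 9th in Q7-C with 35.5 TPM, where it overlapped *Xbp1*, and 4th in Q111-T with 161 TPM, below *Asns* and above *Ddit3* without overlap.

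Over the 12 libraries, the gene whose log2 CPM was most like each member, by Pearson's r, was *Slc4a11* for *Sesn2* (r = 0.993), *Hey1* for *Trib3* (0.98), *Npdc1* for *Ddit3* (0.983), *Pxdc1* for *Chac1* (0.986), *Slc19a1* for *Xbp1* (0.981), *Carns1* for *Herpud1* (0.986), *Cdc5l* for *Hspa5* (0.989), *Nradd* for *Atf4* (0.972), *Phkg2* for *Asns* (0.977) and *Ptbp2* for *Dnajb9* (0.93). The 12 points share 4 group means and the libraries that stand apart, so these are descriptions. On log2 TPM, r fell to 0.617 for *Atf4* and *Nradd* and to 0.666 for *Asns* and *Phkg2*. On that scale only *Ddit3* and *Hspa5* kept the same most similar gene. For *Atf4* it became *Cth* (0.921), for *Asns* *Gars* (0.894) and for *Sesn2* *Ei24* (0.994), so the genes named depend on the scale. Among the members, *Atf4* and *Ddit3* (r = 0.94), *Trib3* and *Chac1* (0.93), and *Xbp1* and *Herpud1* (0.89) varied most alike, and *Sesn2* and *Xbp1* varied in opposite directions (-0.78).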

How the data were processed

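Poly(A) RNA of 12 libraries was sequenced from both ends with a stranded kit. According to the methods and labels, the authors used cutadapt for trimming, HISAT2 for mapping to GRCm38 and StringTie for expression, and the processing notes also name DESeq2 and edgeR. The authors deposited 1 table with TPM values and estimated counts, the latter not normalized. Low counts favoured multiples of 4, so counts may overstate the number of read pairs, and depth limits cover counting error only.

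Counts were rounded, limited to 16127 genes (0.5 TPM or more in 3 or more libraries), scaled by TMM and fitted with edgeR 4.0.16 (R 4.3.3) without a replicate block. SE was derived from the F statistic. DESeq2 1.42.0, limma 3.58.1, other scalings, filters, counts divided by 4, a replicate block and leaving out libraries were alternatives. The procedure was tested on simulated data with 200 genes changed in Q111-T and no libraries that stood apart, unlike the real data. It called 118 genes for treatment in Q111 cells, 114 of them rightly. For the difference between responses it called 56, of which 55 were right. The rest was computed with pandas 2.3.3 and scipy 1.17.1 and drawn with matplotlib 3.10.9 (Python 3.11.15).

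All 10 members were named, plus the most similar gene per member. From each further list, genes were named from among the 2 largest and the 2 smallest fold changes that passed. List genes outside this rule were named as known p53 targets, or are marked as named after their values were seen. The members and lists were chosen with earlier results of these data known, and the counts are therefore descriptions.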

Additional observations from a re-analysis of the deposited data

Results flagged for a closer look

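The response to IFNγ/LPS differed between the lines, by edgeR's quasi-likelihood test of the difference itself, for 2 of the 10 members and for 15 named genes of the other lists. Values are Q111 minus Q7 on the log2 scale. *Sesn2* (2.33) passed in all 24 alternatives run on it, and *Trib3* (1.12) in 20 of 24.

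Outside the members, *Gdf15* (4.16), *Pmaip1* (4.98), *Atf3* (3.62), *Fos* (3.91), *Ppp1r15a* (1.97) and *Trib2* (-2.96) passed in all 24. *Jun* (2.25) passed in 23, *Slc7a11* (1.33) and *Wars* (-0.96) in 21, *Cebpd* (-1.90) in 17, and *Ndrg1* (1.15) and *Eif2b4* (-1.23) in 16. *Vldlr* (1.21) and *Cth* (1.96) passed in 12 of 24 and *Edem1* (0.76) in 11 of 24, so their calls depended on the setting.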

How the results depend on the processing

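No value of a member or named gene that passed changed sign under any alternative run. The number of members that passed in Q7-T vs. Q7-C was 1, and 0 in limma on log2(TPM + 0.5), log2(TPM + 0.1) or log2(TPM + 1) and in a fit of only the groups compared. In Q111-T vs. Q111-C it was 4, and 8 in a fit of only the groups compared, 9 without Q7-C library 1 and Q7-T library 2, 7 without these and Q111-T library 2, and 3, 3 and 4 in limma with 0.5, 0.1 and 1 added. In Q111-C vs. Q7-C it was 8, and 3 in the 3 limma fits. In Q111-T vs. Q7-T it was 7, and 2 in the limma fits and 4 with only the groups compared. For the difference between responses it was 2, and 4 in DESeq2, 1 in the limma fits, and 4 and 5 without the 2 or 3 libraries. Leaving out each library in turn gave 1 to 1, 3 to 5, 5 to 10, 4 to 7 and 1 to 3 in the order above. Over all genes, DESeq2 called 1509 in Q7-T vs. Q7-C against 862, and 1980 for the difference between responses against 919. Only the groups compared gave 397 in Q7 cells, and 5474 against 3010 in Q111 cells. Without the 2 libraries, 1380, 5915, 5561 and 2758 genes passed for treatment in Q7 cells, treatment in Q111 cells, the nontreated lines (3664 with all libraries) and the difference between responses, and without the 3, 2241, 6856, 7012 and 4477. Fits with only the groups compared or with fewer libraries estimate the spread from other libraries. For the other changes the cause was not tested.

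With replicate number as a block, 1, 4, 8, 6 and 2 members passed for treatment in Q7 cells, treatment in Q111 cells, nontreated lines, treated lines and the difference between responses. The member lost was *Ddit3* in Q111-T vs. Q7-T. Libraries with the same number correlated in their deviations from the group means between -0.416 and 0.303. With 3 libraries per group, some of which stood apart, these values cannot show whether libraries of the same number were prepared together.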
